A study of Bos taurus with 6 samples.

Results

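The translation initiation and elongation factors on the bovine array were examined in blastocysts and in embryos that stopped before that stage. Members were all probe sets, control probe sets left out, that the platform annotation gives a single gene symbol beginning with EIF1 to EIF6 or EEF, without the kinases EIF2AK and symbols beginning with EEF2K. This gave 46 of the 9155 genes with a probe set of their own symbol, in 61 of the 24036 probe sets, of which 32 genes had 1 probe set, 13 had 2 and EIF4H had 3. All embryos were bovine, fertilized and cultured in vitro, and had compacted into morulae before they were graded on day 8. Blastocysts were embryos with a clear inner cell mass and a fluid cavity, and degenerative embryos were compacted embryos that did not make the step from morula to blastocyst. Each group held 3 pools (A, B and C) of 20 embryos, with 1 array per pool, and no drug, allele or transgene separated the groups. Oocytes came from slaughterhouse ovaries and the sperm from frozen bull semen, a pool mixed embryos of different parents, and the grade was given by microscopy alone. In RNA from whole embryos, fewer cells of a type and less RNA per cell cannot be told apart.

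Translation starts when eIF4E, the protein that binds the cap at the 5′ end of an mRNA, joins the scaffold eIF4G and the helicase eIF4A, while eIF2 carries the initiator tRNA to the small ribosomal subunit together with eIF1, eIF1A, eIF3 and eIF5. The exchange factor eIF2B recharges eIF2 with GTP, and this step is the one that stress kinases block. Elongation factors then bring each charged tRNA (eEF1A, recharged by eEF1B) and move the ribosome along (eEF2). In early embryos, mRNAs stored in the oocyte are translated before the embryo's own genome takes over, and the demand for protein synthesis grows as the blastocyst forms.

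The values are GCRMA expression values on the log2 scale, so a difference of 1 is a doubling. Differences are given as degenerative minus blastocyst, so a value below 0 is lower in degenerative embryos. GCRMA puts probe sets with no signal at a floor of 2.12, and because probes bind with different strength, the levels of different genes were not ranked. Of the 61 member probe sets, 3 sat at the floor on all 6 arrays (that of EEF1A2 and the second probe sets of EIF2A and EIF3A), and the other 58, for 45 genes, were among the 18937 tested. 51 of the 58 (87.9%) had a mean of 5 or more in at least 1 group, as had 61.7% of all tested probe sets, and are called bright here. The array medians over all tested probe sets lay between 6.35 and 6.48. The labels' tissue fit the lineage markers: all 5 trophectoderm genes, all 3 inner cell mass genes and all 3 hypoblast genes on the array reached a mean of 5 in a group. The trophectoderm regulator TFAP2A was lower in degenerative pools (difference -2.90, limma adjusted p = 0.47), while KRT8, KRT18, TEAD4 and ELF3, the other trophectoderm genes, differed by -0.04, -0.06, 0.02 and -0.19. The 3 inner cell mass genes POU5F1, SOX2 and KLF4 were higher by 0.48, 1.03 and 0.51 (limma adjusted p = 0.602, 0.601 and 0.628). The part of these markers in the results on translation factors was not tested. Of the markers of other cells, 2 of 8 cumulus and granulosa genes, 1 of 5 sperm genes and 0 of 7 oocyte genes on the array reached a mean of 5, with AMH, FOXL2 and INHA at or near the floor. The 2 cumulus and granulosa genes that reached it were HAS2 and PTX3. HAS2 had a mean of 10.31 in blastocysts and 10.76 in degenerative pools, with overlapping pools (difference 0.45, limma adjusted p = 0.783). PTX3, a cumulus gene, read 2.12, 8.36 and 7.22 in degenerative pools and 2.12 to 4.27 in blastocysts. CYP19A1, the estrogen-making enzyme of granulosa cells, read up to 6.69 in blastocysts and 2.55 to 2.75 in degenerative pools. Of the 7 oocyte genes, ZP2, ZP3 and NLRP5 were highest in degenerative pool A, at 6.16, 5.42 and 5.03. ZP4 was at the floor there and at 3.56 and 3.41 in degenerative pools B and C, GDF9 and BMP15 held a single value on all arrays, and MOS lay between 2.41 and 2.46.

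No translation factor passed the test. In limma, with Benjamini-Hochberg adjustment over all 18937 probe sets, 0 of 58 member probe sets reached an adjusted p of 0.15, as 0.0211% of all tested probe sets did. No member reached 0.25 either (0.158% of all tested), and the smallest adjusted p of a member was 0.471, for EIF4E. An unadjusted p under 0.05 was found for 4 of the 58 (6.9%, against 8.61% of all tested). These were EIF4E and EIF4E3, lower in degenerative pools (5.27% of all tested were lower at that p), and EIF2B2 and EIF4G3, higher (3.34%). With the pool letter as a block in the fit, again 4 members had an unadjusted p under 0.05 (9.45% of all tested), with EIF4E and EIF4E3 lower (6.13%) and EIF3CL and EIF4A3 higher (3.32%), and 0 passed the adjustment. SAM, a permutation method, called 0 members at a false discovery rate of 15% (0.354% of all tested) and 1 at 25%, EIF4E (4.66% of all tested). The 3 pools of one group lay apart from the 3 of the other for 9 of 58 members, or 15.5%, beside 15.4% of all tested. Of these, 6 were higher in degenerative pools (6.48% of all tested) and 3 lower (8.93%). All 9 were bright. Among bright probe sets 9.14% of the array was higher without overlap, 12.7% was lower without overlap and 12.8% had an unadjusted p under 0.05. The members' shares over both directions lay near or below those of the whole array.

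The member differences were also small against those of bright probe sets. No member differed by more than 1 on the log2 scale, while 10.9% of all tested probe sets did, and 14.5% of those with a mean of at least 5. The member differences ran from -0.75 to 0.99, and their median size was 0.25, beside 0.28 over all tested. For the bright ones it was 0.27, beside 0.39 for the bright probe sets of the array. The median pooled SD was 0.313 for members and 0.378 over all tested, and 0.314 and 0.451 for the bright ones. The bright probe sets were not matched to the members in level. The median of an array was 11.76 to 12.23 over members and 6.35 to 6.48 over all tested. The part of level in the smaller differences and SDs of the members was not tested. More members were higher than lower in degenerative pools, 36 against 22, or 62.1% beside 51.7% of all tested. The median difference was 0.07, and 0.00 over all tested. This lean moved with single pools. Without degenerative pool A, 25 members were higher and 33 lower, with a median of -0.01, and without both A pools 35 were higher and 23 lower, with a median of 0.07.

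**Figure D1:**
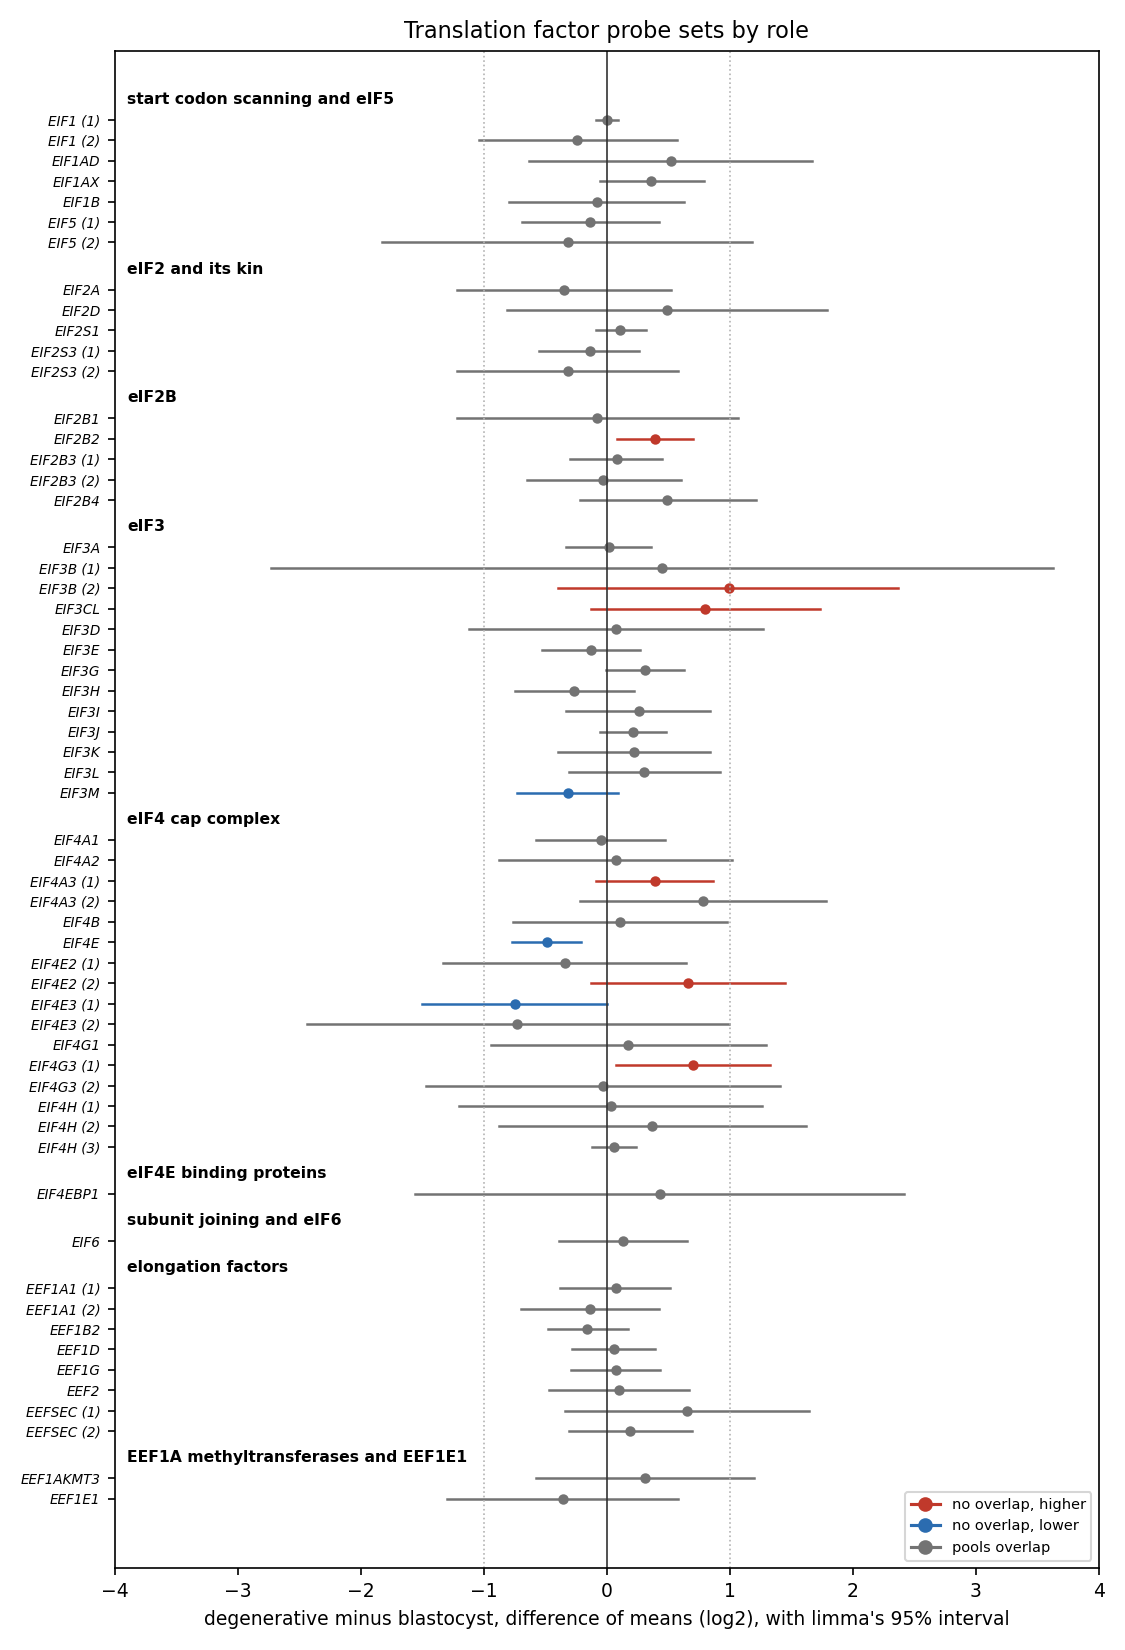
Difference between the means of 3 degenerative and 3 blastocyst pools (log2) for the 58 tested member probe sets, grouped by role, with limma's 95% interval as bars and dotted lines at 1 and -1. Numbers in brackets tell apart probe sets of one gene; no point lies outside the dotted lines, and the 9 coloured probe sets are those whose pools did not overlap.

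The cap-binding protein was the member with the smallest p. EIF4E (chromosome 6) read 12.58, 12.35 and 12.49 in blastocyst pools A, B and C and 12.00, 11.83 and 12.13 in the degenerative pools. Every degenerative pool lay below every blastocyst pool, which fixes the sign within each letter, and the differences there were -0.58, -0.53 and -0.36. The difference was -0.49 (SE 0.11, 95% interval -0.77 to -0.21, n = 3 and 3), which is 1.4-fold lower, with an unadjusted limma p of 0.00714 and an adjusted p of 0.471. It lay between -0.56 and -0.41 over 13 other settings, with limma adjusted p from 0.211 to 0.819.

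The array also carries control probe sets for the 5′ part, the middle and the 3′ part of the EIF4E transcript. They are no members and were left out of the fit, but they measure the same mRNA. The 3′ control read 13.16, 13.01 and 13.02 in blastocyst pools and 12.51, 12.36 and 12.82 in degenerative pools, a difference of -0.50 close to that of the member. The middle control read 11.48, 10.40 and 10.66 against 9.74, 9.75 and 9.96, a difference of -1.03. The 5′ control read 6.56, 4.42 and 4.66 against 2.64, 2.56 and 3.70, a difference of -2.25. In all 3 parts the groups did not overlap, and the two-sided exact permutation p was 0.1, the smallest that 3 against 3 pools can give. The differences were larger at the 5′ control than at the 3′ control, but degenerative pools A and B read close to the floor of 2.12 at the 5′ control, so the size there is uncertain. The 5′ value minus the 3′ value was -7.85 ± 1.09 (SD, n = 3) in blastocysts and -9.60 ± 0.41 in degenerative embryos, again without overlap (exact permutation p = 0.1). The middle minus the 3′ value gave a difference of -0.54, also without overlap before rounding. The exact permutation p of 0.2 was taken from rounded values, in which blastocyst pool B and degenerative pool B tied at -2.61. Without such a tie, groups that do not overlap give 0.1.

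The amplification used here primes from the poly(A) tail, so signal near the 5′ end depends on the length of the amplified RNA. A 5′ minus 3′ value mixes this with the strength of the probes, and it was compared only between pools, for 1 transcript at a time. For EEF1A1, the main carrier of charged tRNA, 5′ minus 3′ was 1.65, -0.87 and 0.35 in blastocysts and -0.83, -0.70 and -0.52 in degenerative embryos. The difference was -1.06 (exact permutation p = 0.4), with blastocyst pools A and C above all degenerative pools and blastocyst pool B below them. For GAPDH, an enzyme of glycolysis, the difference in this value was -0.07 (exact permutation p = 1), and for PPIB, a folding enzyme of the endoplasmic reticulum, it was -0.37 (exact permutation p = 0.3). Single controls of these transcripts also parted the groups at the same p of 0.1 by exact permutation: GAPDH was higher in degenerative pools by 0.45 in the middle and 0.24 at the 3′ part, and the 5′ control of PPIB differed by -0.39. For EIF4E the 3′ control and the member itself, which measure the same mRNA, gave -0.50 and -0.49. The part of RNA length in the EIF4E result was not tested.

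**Figure D2:**
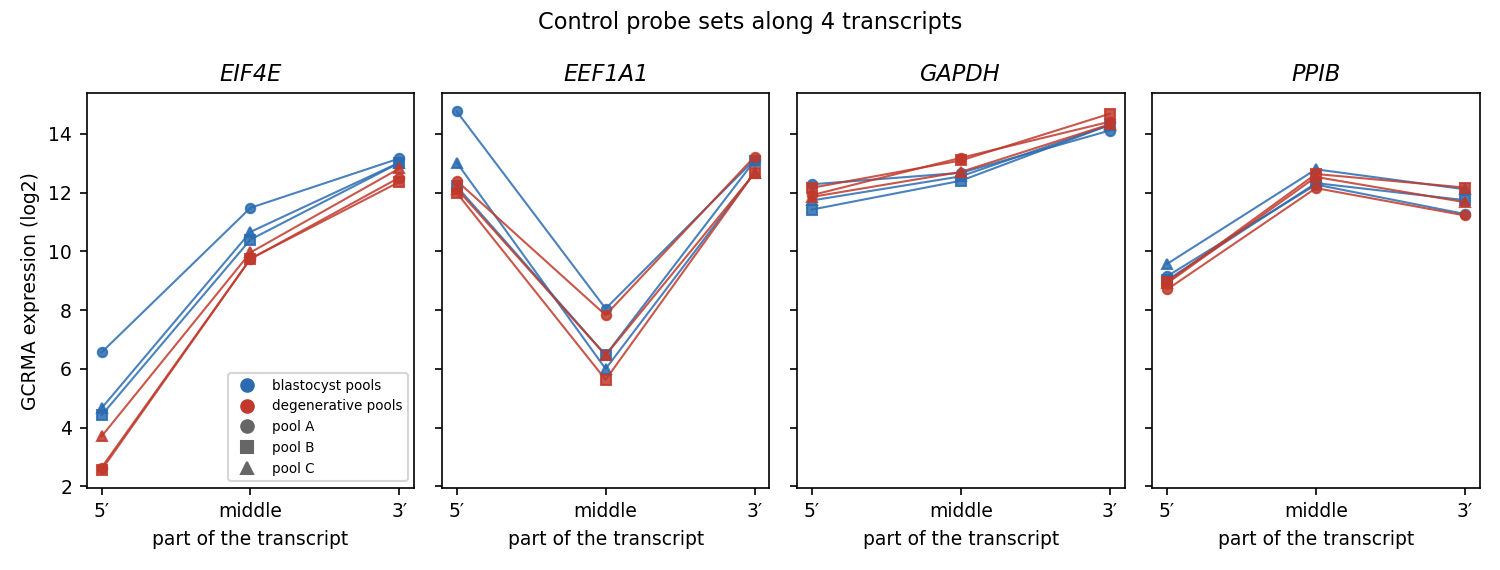
GCRMA expression (log2) of the control probe sets for the 5′ part, middle and 3′ part of 4 transcripts, with 1 line per pool, blastocysts in blue and degenerative embryos in red. For EIF4E the red lines lie below the blue lines at all 3 parts, in group means by 2.25 at the 5′ part and 0.50 at the 3′ part. The 5′ minus 3′ differences between groups were -1.75 for EIF4E, -1.06 for EEF1A1, -0.07 for GAPDH and -0.37 for PPIB.

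The other cap-binding members did not all differ in 1 direction. EIF4E3 is a relative of eIF4E that also binds the cap. Its brighter probe set (chromosome 22) read 9.93, 9.53 and 9.47 in blastocyst pools and 9.39, 8.46 and 8.83 in degenerative pools, without overlap. The difference was -0.75 (SE 0.29, 95% interval -1.5 to just under 0, unadjusted limma p of 0.0493, adjusted p = 0.58), the most negative of all members. The second EIF4E3 probe set also gave -0.73, but that value came from 1 array: blastocyst pool A read 4.46 and the other 5 pools 2.28 to 2.33, and the difference without that pool was -0.02.

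EIF4E2, the cap-binding protein that represses rather than starts translation, went the other way in its brighter probe set (chromosome 2), which read 9.68, 10.49 and 10.73 in blastocyst pools and 11.09, 10.91 and 10.88 in degenerative pools. The pools did not overlap, and the difference was 0.66 (SE 0.30, limma adjusted p = 0.624), or 0.35 without blastocyst pool A. The other EIF4E2 probe set gave -0.34 with overlapping pools. The 2 probe sets of this gene therefore disagreed in sign. EIF4EBP1, which holds eIF4E away from the scaffold until it is phosphorylated, read 6.56, 8.19 and 8.16 in blastocyst pools and 6.91, 9.04 and 8.24 in degenerative pools. Its difference of 0.43 was smaller than its pooled SD of 1.01 (limma adjusted p = 0.856), and both A pools were the lowest of their groups.

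Among scaffold and helicase members, EIF4G3, a close relative of the main scaffold eIF4G1, had the smallest unadjusted p without the block. Its brighter probe set (chromosome 2) read 8.84, 9.37 and 9.19 in blastocyst pools and 10.08, 9.99 and 9.43 in degenerative pools, without overlap. The difference was 0.70 (SE 0.24, 95% interval 0.07 to 1.33), 1.63-fold higher, with an unadjusted limma p of 0.0351 and an adjusted p of 0.563. The second EIF4G3 probe set read 3.49, 2.12 and 2.20 against 3.37, 2.22 and 2.14, near the floor in 4 pools, with a difference of -0.03. EIF4G1 itself read 9.70, 10.69 and 10.58 in blastocyst pools and 9.83, 10.84 and 10.82 in degenerative pools. Its difference between groups was 0.17 (95% interval -0.94 to 1.29, limma adjusted p = 0.915), while its A pools lay 0.97 below the B and C pools.

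EIF4A3, the eIF4A relative of the exon junction complex that sits on spliced mRNA, was higher in both of its probe sets. The probe set with the suffix s_at, whose probes can match more than 1 transcript (chromosome 19), read 11.81, 12.37 and 12.30 in blastocyst pools and 12.40, 12.68 and 12.57 in degenerative pools, a difference of 0.39 without overlap (limma adjusted p = 0.628). The other read 12.01, 11.57 and 11.66 against 13.27, 12.37 and 11.94, a difference of 0.78 (limma adjusted p = 0.629) in which only blastocyst pool A and degenerative pool C overlapped. The helicase of the cap complex, EIF4A1, gave -0.05 (95% interval -0.58 to 0.47, limma adjusted p = 0.966). EIF4A2, EIF4B and the 3 probe sets of EIF4H, which assist or replace it, gave differences from 0.03 to 0.37, all with overlapping pools.

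**Figure D3:**
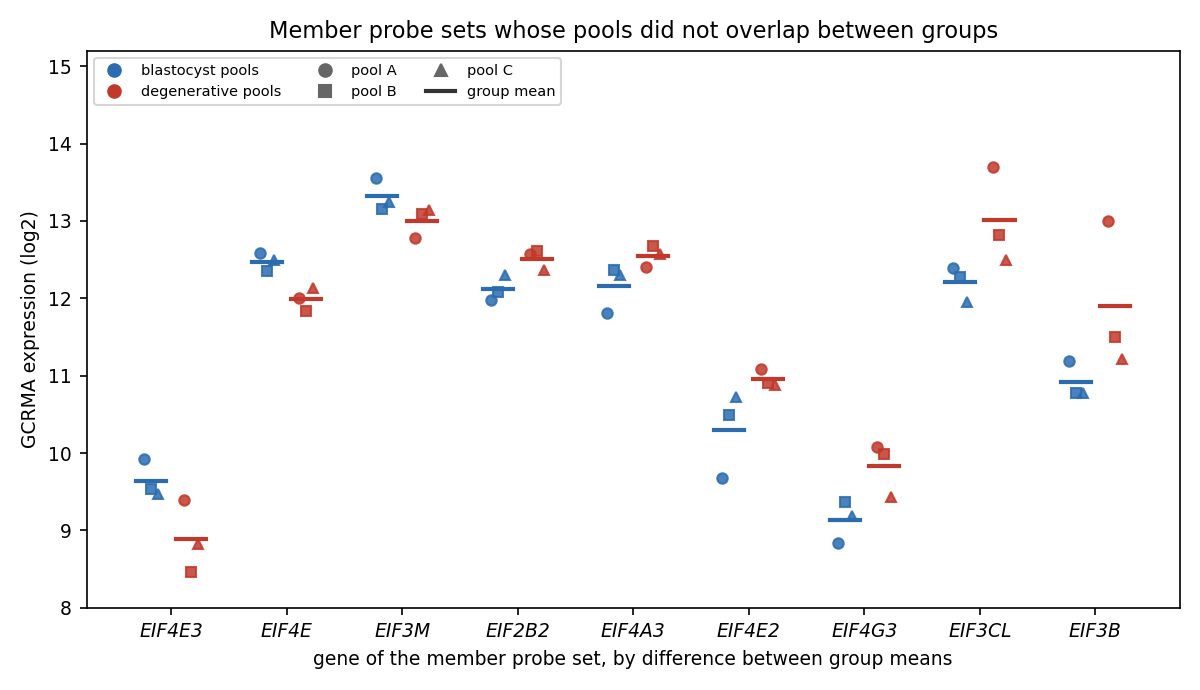
GCRMA expression (log2) in each pool for the 9 member probe sets whose 3 blastocyst pools (blue) and 3 degenerative pools (red) did not overlap, ordered by the difference between group means (horizontal bars), with symbols for pools A, B and C. EIF4E, EIF4E3 and EIF3M were lower in degenerative pools and the other 6 were higher, and degenerative pool A stands highest of the 6 for EIF3B, EIF3CL, EIF4G3 and EIF4E2.

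eIF3, the large complex that holds the small subunit ready for mRNA, had 13 tested probe sets, of which 10 were higher in degenerative pools and 3 lower, with a median of 0.22. Degenerative pool A was the highest of the 6 pools for 7 of the 13 (53.8%, beside 30% of all tested). Without that pool 7 were higher and 6 lower, with a median of 0.03, and without both A pools 9 were higher and 4 lower, with a median of 0.08. EIF3B, a core subunit, read 11.19, 10.78 and 10.78 in blastocyst pools and 13, 11.50 and 11.21 in degenerative pools (chromosome 25). The difference of 0.99 was the most positive of all members (SE 0.53, limma adjusted p = 0.651), and it was 0.44 without degenerative pool A.

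The second EIF3B probe set read 8.53, 6.30 and 6.46 against 9.74, 6.63 and 6.27. The A pools lay above the B and C pools by 2.72 there, against a difference between groups of 0.45, which turned to -0.65 without degenerative pool A. EIF3CL, a near copy of the core subunit gene EIF3C whose signal cannot be parted from it with certainty, read 12.39, 12.28 and 11.95 in blastocyst pools and 13.70, 12.82 and 12.50 in degenerative pools (chromosome 25). Its groups did not overlap, and its difference was 0.80 (SE 0.35, limma adjusted p = 0.619), or 0.45 without degenerative pool A.

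Other eIF3 subunits differed less. EIF3G, which contacts the scanning ribosome, read 13.23, 13.23 and 13.39 against 13.70, 13.72 and 13.36, a difference of 0.31 (SE 0.12, unadjusted limma p of 0.0567, adjusted p = 0.594) in which degenerative pool C lay among the blastocysts. EIF3J, a loosely bound subunit, had degenerative pools A and B above all blastocyst pools and pool C among them, with a difference of 0.21 (limma adjusted p = 0.629). EIF3M was the one subunit without overlap in the other direction, at 13.56, 13.15 and 13.25 in blastocyst pools and 12.78, 13.09 and 13.14 in degenerative pools (chromosome 15). Its groups were parted by 0.01 at their nearest pools, and its difference was -0.32 (SE 0.16, limma adjusted p = 0.633). The remaining subunits, EIF3A, EIF3D, EIF3E, EIF3H, EIF3I, EIF3K and EIF3L, gave differences from -0.27 to 0.30 with overlapping pools.

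Among the subunits of eIF2B, the exchange factor that recharges eIF2, EIF2B2 had the smallest p. EIF2B2 (chromosome 10) read 11.98, 12.08 and 12.30 in blastocyst pools and 12.57, 12.61 and 12.36 in degenerative pools. The difference was 0.39 (SE 0.12, 95% interval 0.08 to 0.70, unadjusted limma p of 0.0233, adjusted p = 0.532), 1.31-fold higher, with little of it within letter C (0.06). EIF2B4 read 10.90, 10.96 and 10.96 against 11.96, 11.37 and 10.95, a difference of 0.49 (limma adjusted p = 0.663) that was 0.00 within letter C. EIF2B1 gave -0.08 (limma adjusted p = 0.992), and both EIF2B3 probe sets lay within 0.08 of 0. Degenerative pool A was the highest of the 6 for 4 of the 5 eIF2B probe sets (80%, beside 30% of all tested).

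Of eIF2 itself, the alpha and gamma subunits were measured. EIF2S1, the alpha subunit that stress kinases phosphorylate, read 12.73, 12.55 and 12.61 in blastocyst pools and 12.85, 12.71 and 12.67 in degenerative pools. Its difference of 0.11 had a narrow 95% interval, -0.09 to 0.32 (limma adjusted p = 0.731). EIF2S3, the gamma subunit, gave -0.14 and -0.32 in its 2 probe sets, the latter with a 95% interval of -1.22 to 0.58 and with degenerative pool B at 11.25 against 12.16 to 12.45 in the other 5 pools. Without that pool it gave 0.04. EIF2A and EIF2D are single proteins that can bring a tRNA to the ribosome without eIF2. EIF2A gave -0.35 (limma adjusted p = 0.737), or -0.05 without degenerative pool B. EIF2D read 7.40, 6.80 and 7.09 against 8.57, 7.30 and 6.89, a difference of 0.49 (limma adjusted p = 0.739) that came to 0.00 without degenerative pool A.

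Of the 7 probe sets for start codon scanning and for eIF5, 2 were higher and 5 lower, and all had overlapping pools. One of the 5, the second probe set of EIF1, lay at the floor. Unlike in eIF3 and eIF2B, degenerative pool A was the highest of the 6 pools for 0 of these 7. It was the lowest for 3 of them (42.9%, beside 25.6% of all tested). The direction turned with the pools used: without degenerative pool A 5 were higher and 2 lower (median 0.09), and without both A pools likewise (median 0.13). EIF1AX, the factor that helps the ribosome scan, read 13.35, 13.52 and 13.77 in blastocyst pools and 13.97, 13.68 and 14.08 in degenerative pools, a difference of 0.36 (SE 0.16, 95% interval -0.06 to 0.79, limma adjusted p = 0.623). It was higher in degenerative pools within each letter. EIF1, which guards the choice of start codon, read 14.23, 14.18 and 14.33 against 13.36, 14.32 and 14.36. Its difference of -0.24 (limma adjusted p = 0.787) came from degenerative pool A alone and was 0.09 without it. EIF1AD, a relative of eIF1A, gave 0.52 with a 95% interval of -0.63 to 1.67 (limma adjusted p = 0.737), and 0.13 without blastocyst pool A and 0.81 without blastocyst pool C. EIF6, which keeps the large ribosomal subunit apart until it is ready, gave 0.13 (95% interval -0.39 to 0.65, limma adjusted p = 0.824).

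The elongation factors were the most even of the large groups, with the smallest median pooled SD, 0.236, of the roles that held more than 5 probe sets. EEF1A1 read 15.83, 15.41 and 15.51 in blastocyst pools and 15.84, 15.70 and 15.41 in degenerative pools. The groups overlapped, and the 95% interval of the difference of 0.07 ran from -0.38 to 0.51 (limma adjusted p = 0.922). EEF1A1 has many copies in mammalian genomes, so its probes may read more than 1 locus. Its second probe set gave -0.14 (limma adjusted p = 0.823). EEF1B2 and EEF1G, parts of the exchange factor of eEF1A, gave -0.16 (95% interval -0.48 to 0.17) and 0.07 (95% interval -0.29 to 0.43). EEF2, which moves the ribosome by 1 codon, read 14.31, 13.90 and 14.01 against 14.44, 14.29 and 13.78, a difference of 0.10 (95% interval -0.47 to 0.67, limma adjusted p = 0.901). These intervals do not show that the levels were equal. The brighter EEF1A1 probe set and EEF1B2 read near the upper end of the scale, which may limit how much higher a value could be. This was not tested.

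EEFSEC, the elongation factor that places selenocysteine, had a larger difference of 0.65 (limma adjusted p = 0.677). It read 6.30, 6.43 and 6.40 in blastocyst pools and 7.79, 6.90 and 6.40 in degenerative pools, and 0.27 of the difference remained without degenerative pool A. Its second probe set was near the floor in 5 pools and at 2.79 in degenerative pool A. Degenerative pool A was the highest of the 6 for 6 of the 8 elongation factor probe sets (75%, beside 30% of all tested). Of the last members, EEF1E1, a part of the tRNA synthetase complex, gave -0.36 (limma adjusted p = 0.738), or -0.01 without degenerative pool A, and EEF1AKMT3, a methyltransferase of eEF1A, gave 0.31 (limma adjusted p = 0.747) with 5 pools between 3.12 and 3.21 and degenerative pool A at 4.22.

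Many members, like many probe sets of the whole array, differed more between the A pools and the other pools than between groups. The A pools differed from the B and C pools, over both groups, by more than the degenerative pools differed from the blastocyst pools in 37 of 58 members, or 63.8%, beside 56.6% of all tested. Among bright probe sets the share was 62.7% for members and 58.7% for the array. The contrast of the A pools is unbalanced, so it also varies more by sampling than the contrast between groups. EIF4EBP1 was lower in the A pools by 1.62 in blastocysts and 1.73 in degenerative embryos, and EIF4G1 by 0.94 and 1.0. EIF5, whose protein triggers GTP hydrolysis by eIF2, was higher in the A pools by 1.54 and 1.03 in 1 of its probe sets, and EIF3D by 0.99 and 0.98. These 4 genes are examples picked by their values. The A pools lay to the same side of the B and C pools in both groups for 41 of 58 members (70.7%, beside 55% of all tested and 64% of the bright ones). In others they parted in 1 group: the A pool of the dimmer EIF4E3 probe set was higher by 2.12 in blastocysts and 0.03 in degenerative embryos.

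Degenerative pool A also stood apart on its own. It was the highest of the 6 pools for 27 of 58 members (46.6%), where 30% of all tested probe sets had their highest value there. Among bright probe sets this was 45.1% for members and 34.2% for the array. Degenerative pool A was the lowest of the 6 for 9 of 58 members (15.5%, beside 25.6% of all tested). Of these 9, 3 were start codon scanning and eIF5 probe sets, a role in which it was never the highest. Its members lay above the mean of degenerative pools B and C by a median of 0.32, against 0.00 for all tested and 0.12 for the bright ones. The median over members was 12.23 in that pool and 11.76 to 11.98 in the other 5. It had the lowest array weight in limma, 0.145, where a lower weight marks an array that departs more from the fit, and the oocyte genes ZP2, ZP3 and NLRP5, though not ZP4, were highest there. Their part in the values of the translation factors was not tested. Within letters the median difference of members was 0.18 in A, 0.17 in B and -0.03 in C. In all 3 letters 14 members were higher (24.1%, beside 15% of all tested) and 7 were lower (12.1%, beside 19%). For bright members these shares were 27.5% and 13.7%, beside 19.6% and 25.9% of the bright probe sets of the array.

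**Figure D4:**
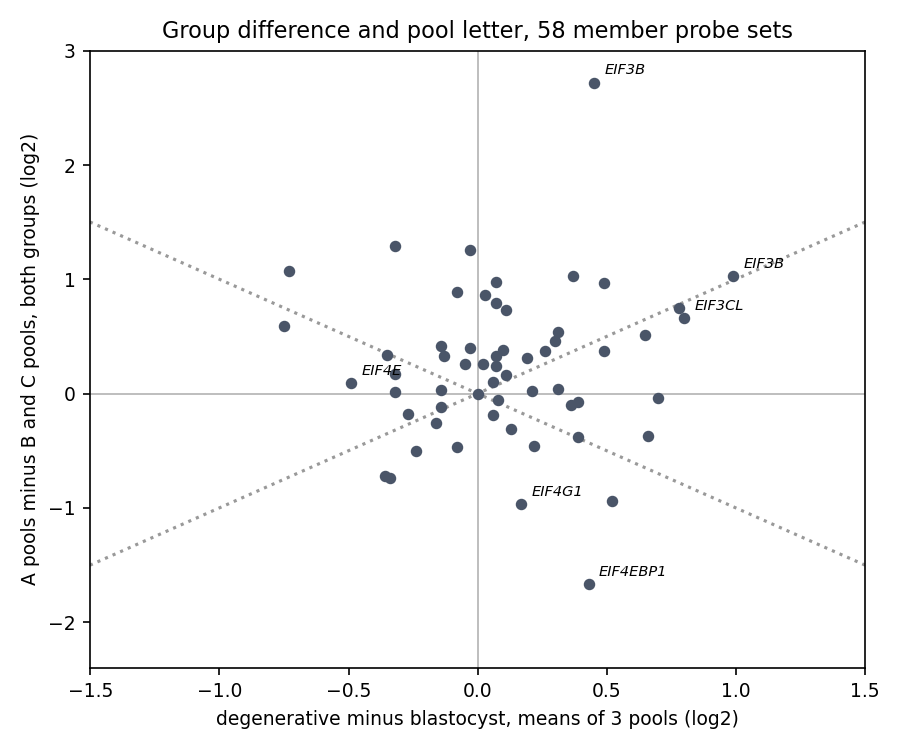
For the 58 tested member probe sets, the difference between A pools and B and C pools over both groups (vertical, log2) against the difference between degenerative and blastocyst pools (horizontal, log2), with dotted lines where both are of equal size. Points above or below the crossing lines, 37 of 58 (63.8%, beside 56.6% of all tested), differed more between the A pools and the other pools than between groups. Among them are EIF4EBP1 at -1.67 and the second EIF3B probe set at 2.72.

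Genes that act on these factors were read as lists, with 1 probe set per gene, and none of their genes reached an adjusted p of 0.15. Of 10 genes tested for the kinases and the phosphatase of eIF2 alpha, 3 were higher (30%, beside 51.7% of all tested) and 7 lower. The higher ones include EIF2AK2 at 0.00 and PPP1CC at 0.03. The lower ones include EIF2AK3, which read 4.81 in blastocyst pool A and lay at the floor in all other pools. The adaptor NCK1, which helps keep eIF2 alpha unphosphorylated, read 11.48, 11.05 and 11.06 in blastocyst pools and 9.84, 10.14 and 10.39 in degenerative pools, a difference of -1.07 (SE 0.20, unadjusted limma p of 0.00355, adjusted p = 0.423). DNAJC3, an inhibitor of these kinases, gave -0.86 without overlap (unadjusted limma p of 0.0186, adjusted p = 0.532), and PPP1R15A, a subunit of the phosphatase, gave 0.47 with overlap (limma adjusted p = 0.677). EIF2AK2, the kinase that senses double-stranded RNA, was chosen after its values were seen because its 2 probe sets disagreed. One read 6.5, 4.93 and 5.0 against 2.12, 3.86 and 3.61, a difference of -2.28 (limma adjusted p = 0.532), and the other gave 0.00.

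Of 10 genes of mTOR, MNK and S6 kinase signaling, 5 were higher and 5 lower. RPS6KB2, an S6 kinase that acts on initiation and elongation, read 7.03, 7.16 and 7.22 in blastocyst pools and 8.56, 8.13 and 7.93 in degenerative pools, a difference of 1.07 (SE 0.18, unadjusted limma p of 0.00252, adjusted p = 0.398). This was the smallest p in all the lists, and the gap was wider than the spread within either group. RPS6KB1, the other S6 kinase of the list, was added after its values were seen because it went the other way. It gave -0.53 with overlap (limma adjusted p = 0.722). TSC1, a brake on mTOR, gave 0.49 (limma adjusted p = 0.628). EEF2K, the kinase that switches off eEF2, gave 1.24 with overlap (limma adjusted p = 0.635), and RHEB, the activator of mTOR, gave -0.14 (limma adjusted p = 0.635).

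In the 3 other lists, 5 of 9 poly(A) binding and scanning helpers were higher, 2 of 5 termination and recycling genes, and 5 of 12 enzymes that modify the factors. ABCF1, a partner of eIF2, gave 0.75 with overlap (limma adjusted p = 0.655), and the poly(A) binding proteins PABPC1 and PABPC4 gave 0.19 and 0.33. GSPT2, a release factor, gave 0.58 without overlap (unadjusted limma p of 0.0474, adjusted p = 0.58), while GSPT1 and ETF1, the other release factors, gave -0.19 and -0.08. CSNK2A1, a casein kinase 2 subunit that phosphorylates several initiation factors, read 10.05, 10.15 and 10.06 in blastocyst pools and 11.03, 10.60 and 10.45 in degenerative pools. The difference of CSNK2A1 was 0.61 (SE 0.17, unadjusted limma p of 0.0166, adjusted p = 0.514). CSNK2A2 gave 0.29 with overlap, and DPH2, which helps make the diphthamide of eEF2, gave -0.25 with overlap (limma adjusted p = 0.602).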

How the data were processed

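RNA of each pool was amplified, labeled and hybridized to the Affymetrix Bovine Genome Array. The labels name 1 round of amplification, and the study's methods describe a further round during labeling. The deposited log2 values were made by the authors with GCRMA 2.14.1 (background from probe sequence, quantile normalization, median polish). Arrays have no read depth, and the 3 pools per group limit the precision. The labels tie no pool to a culture of its own, and the p-values reflect pool-to-pool spread only.

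The groups were compared by limma (version 3.58.1, run under R 4.3.3) without covariates, taking lmFit, eBayes and Benjamini-Hochberg correction with a cutoff of 0.15, over all probe sets that were no controls and varied over the 6 arrays. The method was tested on simulated data. SAM, the study's test, was rewritten from its description over the 20 relabelings of the arrays. Its share of unchanged probe sets came from an unweighted spline, chosen after both splines had been seen (67 calls, against 75 with weights). Gene names came from the platform annotation, and the RefSeq gene table changed 0 symbols and gave chromosomes. Left out by the rule were 6 control probe sets, 8 of EIF2AK and EEF2K symbols and 2 with several symbols.

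Members, roles and lists were chosen with earlier results of these data known. Named were members without overlap and with an unadjusted p under 0.05, up to 3 genes per role and per list with the smallest p, and 11 well-known factors where measured. EIF3B, EIF3M, EIF4A3 and EIF4E2 were added after their values were seen, as members without overlap. Pools of one letter deviated together from their group means (r = 0.373 for A, 0.180 for B and 0.275 for C), and the letters were taken as pairs. Blastocyst pool C and degenerative pool B correlated at 0.374, and blastocyst pool B and degenerative pool C at 0.132. Deviations from a group mean cancel within the group, so a shared departure of the A pools alone makes the B and C pools correlate. These values therefore do not show that the B pools or the C pools are pairs. The alternatives were centring, filters, trend, array weights, the replicate block, SAM and leaving out pools.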

Additional observations from a re-analysis of the deposited data

How the results depend on the processing

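No member was called by limma at an adjusted p of 0.15 under any of the 13 alternatives fitted with it, and SAM at 25% called 1 member, EIF4E, with either spline. With the pool letter as a replicate block, 0 members were called and 4 had an unadjusted p under 0.05, of which 2, EIF4E and EIF4E3, were among the 4 without the block, and EIF3CL and EIF4A3 took the place of EIF2B2 and EIF4G3. That count was 1 with a filter on dim probe sets (11.6% of all then tested), 8 with array weights (14.4% of all tested), and 2 to 9 when 1 pool was left out (5.62% to 11.4% of all tested), with 2 without blastocyst pool B or degenerative pool B and 9 without degenerative pool C. The count without overlap went from 9 to between 10 (without degenerative pool B) and 19 when 1 pool was left out (14 without blastocyst pool A, 17 without degenerative pool C, 19 without degenerative pool A) and to 24 without both A pools, an alternative chosen after seeing the data. With fewer pools more probe sets part by construction: the share over all tested was then 20.8% to 30% and 38.9%. The median difference ran from -0.01 without degenerative pool A to 0.18 without degenerative pool C, and was 0.10 with arrays centred on their medians, which put the median of all tested at 0.03. Of 31 named member probe sets, 17 kept their sign in all settings and 14 did not, EIF4EBP1, EIF4G1, EEF2 and EIF6 among them. The 31 leave out EIF3B, EIF3M, EIF4A3 and EIF4E2, which were added later, and others such as EIF2S3, EIF3D and EIF5. When single pools were left out, probe sets of EIF3B, EIF2S3, EIF3D and EIF5 also changed sign, while those of EIF3M, EIF4A3 and EIF4E2 did not. What limits these values is 3 pools per group and the departure of the A pools, and for 5 member probe sets with all pools under 2.5 the floor of the scale.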

Other observations

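Both probe sets that the annotation gives to EIF4EBP3 also carry ANKHD1, a neighbouring gene, and were left out for that reason. They gave 0.21 and -0.19 (limma adjusted p = 0.747 and 0.948), with overlapping pools in both.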
